A study of Mus musculus with 1 sample.

Results

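The 49 lysosome and autophagy genes described here are 11 cathepsins, 5 lysosomal membrane proteins, 5 glycosidases, 5 other lumenal proteins, 20 genes of the autophagy machinery and 3 MiT/TFE transcription factors. They were chosen by gene symbol, and each had exactly 1 row among the 24214 rows (23386 genes) of the deposited table. RNA sequencing of 1 culture of mouse pancreas fibroblasts, grown out in vitro, gave 52494688 reads counted in these rows. By the labels the culture is called Normal Fibroblast (NF) and came from normal pancreas of an animal on a mixed C57BL/6 and BALB/c background. The genotype label gives tf1acre- and Tgfrb2flox/flox, that is, a Cre-negative animal with floxed receptor alleles, and no treatment, age or number of pooled animals is given. The series set such cells against cancer-associated fibroblasts (CAF) of pancreas tumours. The table and its value column carry a CAF code, which goes against the sample's label, so the library is called the library labelled normal fibroblast. With 1 library there was no replicate and no test between conditions. Intervals below are 95% intervals for counting error only, and reads are not independent molecules.

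Lysosomes are acidic organelles in which hydrolases, among them the cathepsin proteases, break down proteins, glycans and lipids. Macroautophagy delivers cytoplasm to them: the ULK and beclin complexes start a membrane, the ATG12-ATG5-ATG16L1 complex attaches small ubiquitin-like ATG8 proteins (the LC3 and GABARAP families) to it, and cargo receptors such as p62 tether the cargo. The transcription factors TFEB, TFE3 and MITF bind E-box elements in the promoters of many lysosomal genes, and fibroblasts use the pathway to degrade collagen and other matrix taken up from outside.

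Sequence shared by the genes is shown first. The E-box was not used to choose them, but it is already known from promoters of many lysosomal genes. Its share here is therefore a description and not an independent result. RefSeq promoters (GRCm38.p6, 250 bases before to 50 after an annotated start) were found for 42 of the 49 genes. The E-box core CACGTG, which reads the same on both strands, was present in 12 of them (28.6%), against 8.91% of 17492 protein-coding genes with a promoter of the same length. The longer form TCACGTG, or CACGTGA on the other strand, which contains the core, was present in 9 (21.4%), against 874 of the 17492 protein-coding genes. The full 10-base palindrome of the CLEAR element, which contains both, was in 0 of the 42 and in 0.469% of protein-coding genes. A match is a run of letters and not a measured binding site. The windows below, 5′ to 3′ on the gene's own strand, show the element in capitals for a cathepsin, a membrane protein, a glycosidase, a channel and an autophagy enzyme that carry the 7- or 8-base form, and for Ctsl, which carries only the core.
Ctsd, chr7:142387908-142387937, minus strand: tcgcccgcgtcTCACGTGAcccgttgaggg
Lamp1, chr8:13159087-13159116, plus strand: gagggcaagataTCACGTGgtccagcgccc
Gla, chrX:134601182-134601211, minus strand: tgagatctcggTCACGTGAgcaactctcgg
Mcoln1, chr8:3500462-3500491, plus strand: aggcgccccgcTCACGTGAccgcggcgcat
Atg3, chr16:45158746-45158775, plus strand: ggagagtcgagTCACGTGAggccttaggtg
Ctsl, chr13:64370739-64370768, minus strand: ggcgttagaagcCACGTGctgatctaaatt

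Of the 12 genes with the core, 9 were lysosomal (of 23 lysosomal genes with a promoter) and 3 were autophagy genes (of 16). They held 20 sites in all, 19 of them wholly before the start of the promoter table, and 6 genes had more than 1. Gene coordinates below span all RefSeq transcripts of a gene, so such a site can lie inside them, as it does for Ctsl. Lamp1 had 4, and Ctsa, Ctsd, Gla, Mcoln1 and Atg3 had 2 each. None of the 3 transcription factor genes had a site in this window. Genes with the core had a median level of 16.4 RPKM (reads per 1000 bases of exon and 1000000 reads) and those without it 13.2 RPKM. The carriers ran from Ctsd near the top of all 49 genes down to Ctsf and Atg7 in the lower part.

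**Figure D1:**
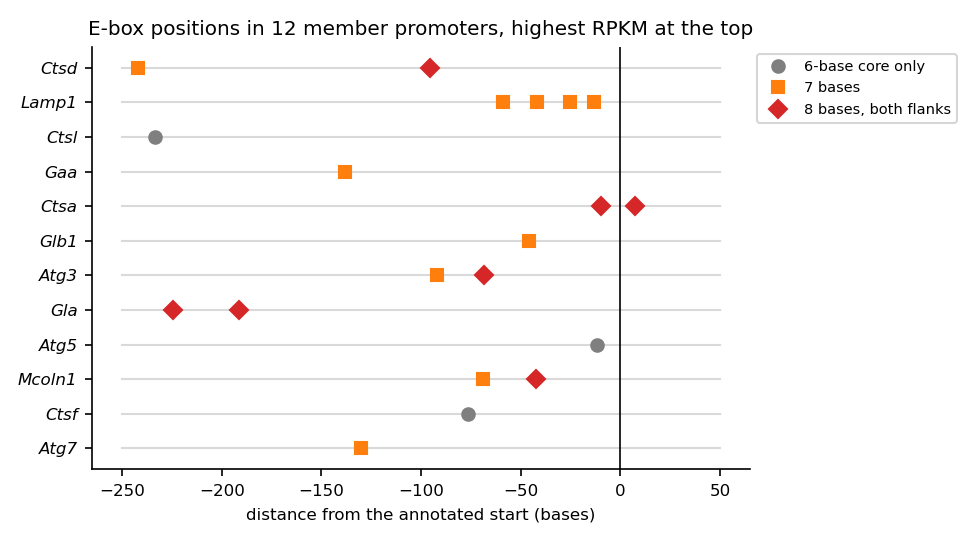
Positions of the E-box core in the 12 promoters that hold it, in bases from the annotated start, with genes ordered from the highest RPKM down. Circles are the 6-base core alone, squares the 7-base form and diamonds the 8-base form with both flanks; 19 of the 20 sites lie wholly before the start, and Lamp1 has 4.

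All 49 genes were detected, with 97 reads (Ctss) to 56524 reads (Psap), where 67.6% of protein-coding genes had the 10 reads taken as detection. Together they held 468687 reads, 0.893% of all reads counted in the rows (exact Clopper-Pearson interval 0.890% to 0.895%). The half-width of the counting interval was 22.0% of the level for Ctss and 0.828% for Psap. Levels of different genes are compared per length only, and the length matters here. The main scale divides by the union of all GENCODE exons of a gene, and a second one, written transcript RPKM, by the longest transcript that the row itself names. The second scale was chosen after seeing the data, because it moved 23 of the 49 genes by more than 1.5 times, always upward. The median of the 49 genes was 12.1 RPKM. Protein-coding genes with 10 reads or more had a median of 4.94 RPKM, called the detected-gene median below, and all protein-coding genes one of 1.19 RPKM. By transcript RPKM it was 17.7, against a detected-gene median of 7.61.

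Of the 49 genes, 35 lay above the detected-gene median, a level that 33.9% of all protein-coding genes with a length exceeded. The count was 40 by transcript RPKM, where the share of all protein-coding genes above the median of 7.61 was not computed. For 17 genes, 90% or more of detected protein-coding genes were lower, as they were for 6.78% of all protein-coding genes. These 17 were 14 of the 26 lysosomal genes and 3 of the 20 autophagy genes, Sqstm1, Gabarap and Gabarapl1. The lysosomal genes had a median of 40.1 RPKM and the autophagy genes one of 8.80 RPKM, a difference of 2.18 log2 units. Lysosomal genes held 82.4% of the summed RPKM of the 49. The groups overlapped: 3 autophagy genes lay above the lysosomal median, and 8 lysosomal genes (Npc1, Mcoln1, Ctsf, Ctsk, Ctsc, Ctsh, Ctss and Ctso) lay below the autophagy median. By transcript RPKM, Gla (12.4) lay below the autophagy median on that scale and Mcoln1 (17.6) above it. Without the 7 genes that share at least 15% of their transcript's 50-base windows with another gene (Ctsa, Ctsb, Ctsd, Atg9a, Becn1, Gabarapl1 and Gabarapl2), the difference was 1.35.

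**Figure D2:**
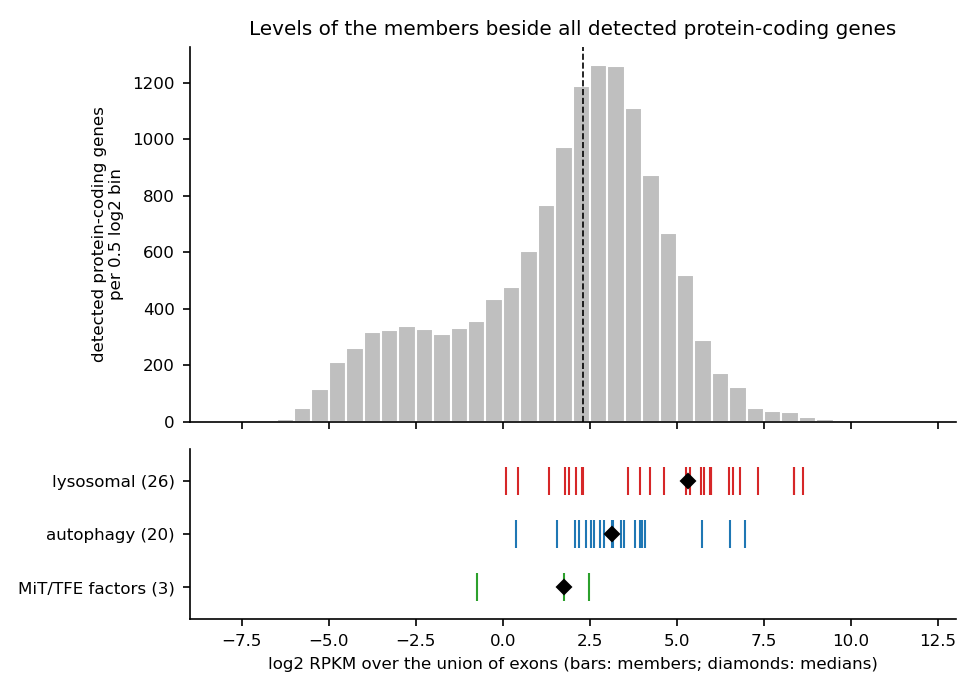
The upper panel counts detected protein-coding genes per 0.5 log2 bin of RPKM, with their median of 4.94 RPKM dashed. In the lower panel each bar is 1 gene and each diamond a median; the lysosomal genes form on this scale a high set around their median of 40.1 RPKM and a low set of 8, while most autophagy genes sit near 8.80 RPKM.

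The 5 other lumenal proteins, hydrolases and their partners among them, all lay above the detected-gene median. Psap (GRCm38 chromosome 10, 60277628 to 60302600), the precursor of the saposins that present sphingolipids to their hydrolases, had 56524 reads, or 392 RPKM (389 to 396), and was the highest of the 49. It alone held 16.3% of their summed RPKM. Npc2, the lumenal cholesterol carrier, had 55.0 RPKM (90.7 transcript RPKM), and Tpp1, a tripeptidyl peptidase, had 51.9 RPKM. Grn, which encodes progranulin, had 38.4 RPKM. Lipa, the acid lipase that frees cholesterol and fatty acids from lipoproteins, was the lowest of the 5 at 15.3 RPKM (34.9 transcript RPKM).

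The cathepsins were 5 very abundant proteases and 6 lower ones. Ctsd, the aspartic protease (chromosome 7, 142375910 to 142387827), had 40505 reads and 328 RPKM (325 to 331). Ctsa, a serine carboxypeptidase that also protects beta-galactosidase and neuraminidase, had 15560 reads and 62.9 RPKM. Among the 9 cysteine cathepsins, Ctsb (chromosome 14, 63122462 to 63145923) had 50755 reads and 160 RPKM (158 to 161). Ctsz, a carboxypeptidase, had 7313 reads and 96.7 RPKM (94.5 to 98.9), and Ctsl (chromosome 13, 64361890 to 64370772) had 30542 reads and 89.7 RPKM (88.7 to 90.7). These were 3 of the 9, and the other 6 all lay below the detected-gene median on the main scale.

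The order of Ctsb and Ctsl depended on the length used. Ctsb stood 1.78 times above Ctsl (1.76 to 1.81) per exon union, and 0.691 times as high per named transcript. The exon union of Ctsl spans 6489 bases and its named transcript 1971 bases, so that its level was 295 transcript RPKM (292 to 299), above the 204 of Ctsb. Both stood far above Ctsc on either scale. Ctsl exceeded it by 25.9 times (24.4 to 27.6) per exon union and 36.7 times per named transcript. Ctsb exceeded it by 46.2 times (43.5 to 49.2) per exon union and 25.3 times per named transcript.

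The 6 lower cysteine cathepsins include those best known from other cells. Ctsk, the collagen-degrading protease of osteoclasts, had 296 reads and 3.73 RPKM (3.32 to 4.18), so that Ctsb exceeded it 42.8 times (38.2 to 48.2). Ctss, which trims the invariant chain in antigen-presenting cells, had 97 reads and 1.36 RPKM (1.10 to 1.66), so that Ctsb exceeded it 117 times (96.2 to 145). Ctsc, the dipeptidyl peptidase that activates the granule proteases of leukocytes, had 1054 reads and 3.46 RPKM (8.05 transcript RPKM). Ctsh, an aminopeptidase, had 590 reads and 2.50 RPKM (6.95 transcript RPKM), and Ctsf had 1134 reads and 4.29 RPKM (10.9 transcript RPKM). Ctso was the lowest cathepsin on the main scale, with 285 reads and 1.06 RPKM (0.940 to 1.19). The intervals of Ctso and Ctss overlapped on the main scale. Their order depended on the length used, because by transcript RPKM Ctss (1.36) lay below Ctso (1.57). By transcript RPKM, Ctsf and Ctsc lay above the detected-gene median, and Ctsh, Ctsk, Ctss and Ctso below it.

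Markers of the cells in which Ctss, Ctsc and Ctsk are best known were measured beside them. Of 17 macrophage genes, 14 had at least 10 reads, as did 67.6% of all protein-coding genes. The median of the 17 was 0.403 RPKM, and the list summed to 0.661% of the RPKM of 10 fibroblast genes. Lyz2 had 6.99 RPKM and was the only 1 above the detected-gene median on the main scale. By transcript RPKM it was also 6.99, and 0 of the genes lay above the median of 7.61. Next came Cd14 with 372 reads and 4.09 RPKM and Cd68 with 235 reads and 3.56 RPKM. Csf1r had 268 reads, Itgam 84 and C1qb 63, while Ptprc, the leukocyte common antigen gene, had 26 reads, Spi1 7, Fcgr1 3 and Aif1 1. Of 8 osteoclast genes, 4 had at least 10 reads, and the list median was 0.0527 RPKM. Acp5 had 5.12 RPKM, and Tnfrsf11a had 118 reads, Atp6v0d2 16 and Mmp9 10. The marker genes Cd68, Laptm5, Acp5 and Atp6v0d2 are also counted in the lists of other pathway genes below. Dcstamp had 1 read, Ocstamp 2, Calcr 4 and Oscar 5. In bulk RNA, few cells of a type and little RNA per cell cannot be told apart, and the part of such cells in the levels of these cathepsins was not tested.

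The labelled cell type was checked with lists of the same kind. None of the lists was made to tell normal from cancer-associated fibroblasts, so that part of the label was not tested. All 10 fibroblast genes were above the detected-gene median, from Pdgfra at 36.5 RPKM to Fn1 at 906 RPKM. Mesothelial genes summed to 7.62% of them, led by Upk1b at 67.6 RPKM, and acinar genes to 6.27%, led by Ctrb1 at 58.5 RPKM. Of the 8 mesothelial genes, 7 (6 by transcript RPKM) lay above the detected-gene median, which 33.9% of all protein-coding genes with a length exceeded. Lrrn4 at 58.7 RPKM and Upk3b at 41.0 RPKM came next after Upk1b, and Krt8 at 1.04 RPKM lay below that median. Ductal genes (0.390%, led by Krt19 at 5.98 RPKM) and endothelial genes (0.935%) were lower. Of the endothelial genes, Kdr at 20.1 RPKM and Flt1 at 7.55 RPKM lay above the detected-gene median, while Pecam1 had 13 reads and Emcn 5. Of the 11 acinar genes, 7 lay above that median, with Cela2a at 31.3 RPKM and Pnlip at 31.2 RPKM next after Ctrb1. The acinar transcription factor gene Ptf1a had 6 reads and the trypsinogen gene Prss1 also 6. What these cells or transcripts add to any of the 49 levels was not tested.

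Lysosomal membrane proteins covered a wide range. Lamp1 (chromosome 8, 13159161 to 13175338), a major glycoprotein of the lysosomal membrane, had 45861 reads and 327 RPKM (324 to 330). Lamp2, its relative that also serves chaperone-mediated autophagy, had 31095 reads and 62.0 RPKM (164 transcript RPKM). Lamp1 was 5.27 times Lamp2 (5.19 to 5.34) per exon union and 2.38 times per named transcript. Scarb2, the receptor that carries glucocerebrosidase to lysosomes, had 13791 reads and 41.8 RPKM. The membrane cholesterol transporter gene Npc1 had 2923 reads and 4.92 RPKM, at the detected-gene median, and 10.7 transcript RPKM. Npc2, which hands cholesterol to it, stood at 55.0 RPKM, so the 2 partners differed widely in transcript level. Mcoln1, the calcium channel of lysosomes, had 1906 reads and 4.81 RPKM, or 17.6 transcript RPKM, which put it above that median on the second scale only.

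The 5 glycosidases were all above the detected-gene median. Hexa, the alpha chain of beta-hexosaminidase, had 11876 reads and 113 RPKM (111 to 115). Gaa, which degrades glycogen, had 15943 reads and 63.5 RPKM. Man2b1, an alpha-mannosidase, had 24.7 RPKM (52.0 transcript RPKM). Glb1, the beta-galactosidase behind the senescence stain, had 2978 reads and 18.9 RPKM (18.2 to 19.5), and Gla, the alpha-galactosidase, 2071 reads and 12.1 RPKM (11.6 to 12.6). Hexa was thus the highest and Gla the lowest on both scales.

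**Figure D3:**
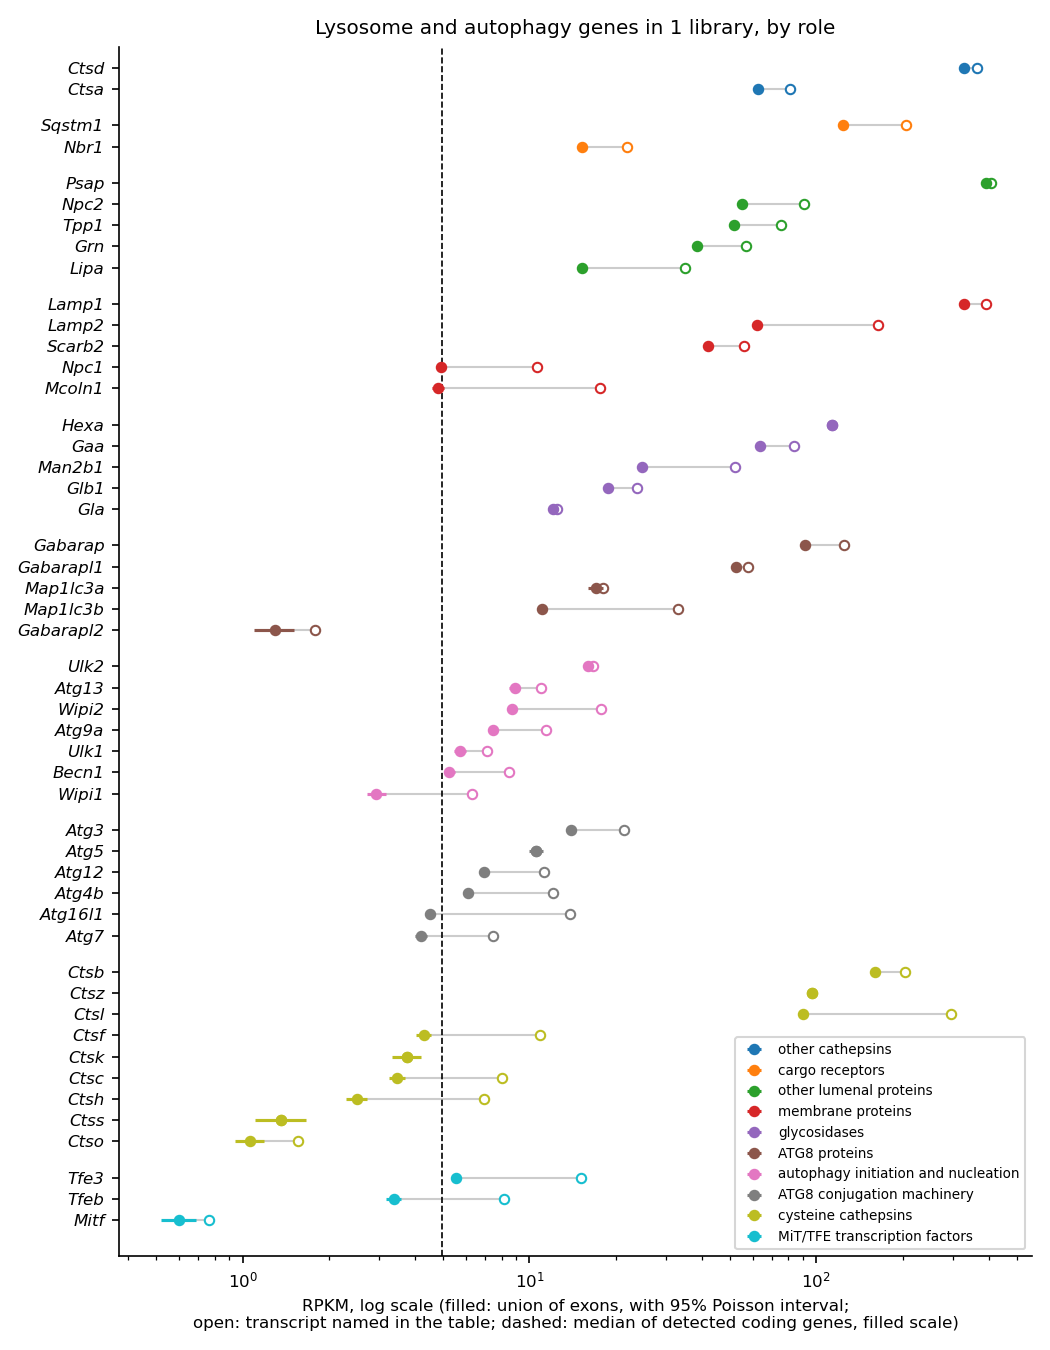
Level of each of the 49 genes by role on a log axis. Filled points are RPKM over the union of exons with 95% Poisson intervals, open points the level over the transcript named in the table, and the dashed line the detected-gene median on the filled scale; Psap, Ctsd and Lamp1 lie above 300 RPKM, and Mitf is lowest at 0.600 RPKM.

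Of the 3 transcription factor genes, Tfe3 was above the detected-gene median, Tfeb was above it on the second scale only, and Mitf was below it on both. Tfe3 (chromosome X, 7762530 to 7775202) had 2704 reads and 5.56 RPKM (5.35 to 5.78), or 15.2 transcript RPKM. Tfeb (chromosome 17, 47737037 to 47792416) had 1001 reads and 3.36 RPKM (3.16 to 3.58), or 8.14 transcript RPKM. Tfe3 was 1.65 times Tfeb (1.54 to 1.78) per exon union and 1.87 times per named transcript, but 0.9998 times Tfeb when the longest GENCODE transcript was used. Mitf, best known as the regulator of melanocytes, had 195 reads and 0.600 RPKM (0.518 to 0.690), the lowest of the 49, at 0.178 times Tfeb (0.152 to 0.208) per exon union and 0.0935 times per named transcript. A further relative from the list of nutrient sensing, Tfec, had 4 reads.

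Genes that start the autophagosome lay close together. Of the 2 kinases at the head of the pathway, Ulk2 had 5022 reads and 16.0 RPKM (15.6 to 16.5), and Ulk1 1952 reads and 5.73 RPKM (5.48 to 5.99). Ulk2 therefore stood 2.79 times above Ulk1 (2.65 to 2.94), and 2.34 times per named transcript. Atg13, their scaffold, had 8.90 RPKM, and Becn1, of the lipid kinase complex, had 5.25 RPKM (8.50 transcript RPKM). Atg9a, the membrane protein that seeds the growing membrane, had 7.48 RPKM (11.5 transcript RPKM). Of the proteins that bind the lipid mark of the young autophagosome, Wipi2 had 4811 reads and 8.69 RPKM (17.7 transcript RPKM) against 678 reads and 2.93 RPKM (6.30 transcript RPKM) for Wipi1, a ratio of 2.97 (2.74 to 3.22). Wipi1 was the only 1 of these 7 below the detected-gene median on the main scale, with Ulk1 (7.13 transcript RPKM) also below it on the second, and none of the 7 was among the genes with 90% of detected protein-coding genes below them.

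The enzymes that attach ATG8 proteins to the membrane were just as even. Atg3, the E2-like enzyme, had 2312 reads and 14.0 RPKM (21.4 transcript RPKM), the highest of the 6. Atg5 had 10.5 RPKM and its conjugation partner Atg12 had 6.96 RPKM (11.3 transcript RPKM). Atg4b, the protease that primes and releases ATG8 proteins, had 6.10 RPKM (12.1 transcript RPKM). Atg16l1 had 4.51 RPKM (13.9 transcript RPKM), and Atg7, the E1-like enzyme that acts at the head of the cascade, had 1531 reads and the lowest level, 4.19 RPKM (7.49 transcript RPKM). The highest and lowest of this group differed 3.34-fold on the main scale, against 151-fold among the cysteine cathepsins.

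The 5 ATG8 genes differed far more. Gabarap (chromosome 11, 69991370 to 69994949) had 8880 reads and 91.7 RPKM (89.8 to 93.7), and Gabarapl1 5546 reads and 52.5 RPKM (51.1 to 53.9). Map1lc3a had 1055 reads and 17.0 RPKM (16.0 to 18.1), and Map1lc3b 4380 reads and 11.1 RPKM (10.8 to 11.4). Map1lc3b was thus 0.652 times Map1lc3a (0.610 to 0.698) per exon union, but 1.82 times per named transcript, because its exon union spans 7517 bases and its named transcript 2532. Gabarapl2 (chromosome 8, 111940703 to 111952915) had only 158 reads and 1.29 RPKM (1.10 to 1.51), 70.9 times below Gabarap (60.5 to 83.5) and 69.8 times per named transcript. Of the 50-base windows of its transcript, 17.0% also occurred in transcripts of 4 other genes, led by Gm3724, Gm6051 and Gm5829. The same share was 13.8% for Map1lc3b, and 0 for Gabarap and Map1lc3a. For Gabarapl1 it was 18.6%, all of it with 1700101I11Rik. That gene overlaps the exons of Gabarapl1 at the same locus, on the opposite strand, and had 16 reads. The sources used here do not say how reads that match more than 1 place were counted, and the part of shared sequence in these levels was not tested.

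Of the cargo receptors, Sqstm1 (chromosome 11, 50200152 to 50210820), which encodes p62, had 21925 reads and 124 RPKM (123 to 126), or 205 transcript RPKM. It was the highest of the 20 autophagy genes on both scales. Nbr1, which works with p62 on ubiquitinated cargo, had 5509 reads and 15.3 RPKM. Sqstm1 stood 8.15 times above Nbr1 (7.91 to 8.39), and 9.36 times per named transcript.

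Exons of 12 of the 49 genes overlapped those of another gene over at least 5% of their length. Pltp, which runs against Ctsa, had 6149 reads, or 39.5% of those of Ctsa. Tmppe had 64.1% of the reads of Glb1, with which it shares a strand, Ankzf1 28.5% of those of Atg9a, and Rmc1, on the opposite strand, 75.5% of those of Npc1. The partners of Ctsb (Fdft1), Sqstm1 (Mrnip), Lamp1 (Grtp1), Hexa (Tmem202), Gabarapl1 (1700101I11Rik) and Becn1 (Cntd1) had at most 2.82% of the gene's reads, although Cntd1 covers 43.9% of the exon bases of Becn1. A further gene model, Gm49369, covers 34.4% of Ctsd on the same strand, and models Gm47123 and Gm49230 overlap Ctsl. The model Gm29253 holds 47.8% of the 50-base windows of the Atg9a transcript. The read shares above count all reads of a partner, not only those in shared bases. Overlapping genes covered 17.4% of the exon bases of Ctsa and 5.31% of those of Npc1, both on the opposite strand. On the gene's own strand they covered 5.49% of Glb1 and 31.8% of Atg9a. The sources used here do not state the strand setting of the counting. How reads in the shared bases of Ctsa and Npc1 were counted is therefore unknown. For Glb1, Atg9a and Ctsd the overlap is mainly on the gene's own strand, and the assignment of such reads is likewise unknown.

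The rest of the pathway was followed in lists of other genes, grouped by role. Counts in these lists stand beside 67.6% of protein-coding genes detected. Of all protein-coding genes with a length, 33.9% lay above the detected-gene median. Counts by transcript RPKM use the median of 7.61 on that scale. The share of all protein-coding genes above it was not computed. All 27 further lysosomal hydrolases were detected, 24 (22 by transcript RPKM) exceeded the detected-gene median, and the list median was 15.8 RPKM. Among the highest were Lgmn, the legumain protease, with 41.8 RPKM and Asah1, the acid ceramidase, with 39.5 RPKM. Of 14 sorting genes, 12 (11 by transcript RPKM) lay above the detected-gene median and the list median was 23.7 RPKM. They were led by the retromer subunits Vps26a (48.3 RPKM) and Vps35 (38.8 RPKM) and the adaptor subunit Ap3b1 (29.6 RPKM). By transcript RPKM, Vps35 (99.4), Ap3d1 (53.6) and Vps26a (50.9) led.

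Among 22 genes of the vacuolar proton pump, 17 lay above the detected-gene median on both scales and the list median was 16.2 RPKM. Atp6ap1, an accessory subunit, had 91.8 RPKM, Atp6v0d1 73.9 RPKM and Atp6ap2 46.0 RPKM, while Atp6v0e led by transcript RPKM with 142. The other 5 were paralogs known from specialised tissues: Atp6v1g2, Atp6v0a4, Atp6v1b1 and Atp6v0d2 had 74, 57, 48 and 16 reads, and Atp6v1c2 had 4. These paralogs except Atp6v1c2 are named after their values were seen. Of 18 further membrane proteins, 8 (7 by transcript RPKM) lay above the detected-gene median. On the main scale that was not far from the 33.9% of all protein-coding genes that did. Laptm4a, at 270 RPKM, stood beside Lamp1, with Laptm4b at 41.2 RPKM and the tetraspanin Cd63 at 35.0 RPKM (121 transcript RPKM). The list median was 3.53 RPKM.

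Of 27 further autophagy genes, 19 (15 by transcript RPKM) lay above the detected-gene median. The median of the 27 was 6.47 RPKM, close to the 8.80 RPKM of the 20 described above. Vmp1, a scramblase that acts early in autophagosome formation, led with 102 RPKM, followed by Wdfy3 with 21.0 RPKM and Rab7 with 19.7 RPKM. Exon overlap with other genes was not computed for the genes of these lists. In the list of 10 further cargo and mitophagy receptors, Tollip had 21.6 RPKM, Tax1bp1 16.9 RPKM (51.4 transcript RPKM) and Bnip3l 9.67 RPKM. Of the 10, 5 (6 by transcript RPKM) lay above the detected-gene median, where on the main scale 33.9% of all protein-coding genes did. Of 18 genes of lysosomal nutrient sensing, 13 lay above the detected-gene median on both scales and the list median was 6.23 RPKM. The GTPase genes Rraga (44.9 RPKM) and Rragc (30.9 RPKM) led, with the folliculin partner Fnip1 at 22.0 RPKM. By transcript RPKM, Vamp8 (36.8) stood second to Vmp1, and Lamtor1 (37.9) came after both GTPase genes.

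Of 6 cystatins, inhibitors of the cysteine cathepsins, 2 were abundant. Cstb, the cytosolic cystatin B gene, had 9608 reads and 304 RPKM (297 to 310), and Cst3, the secreted cystatin C gene, 6034 reads and 90.8 RPKM (88.5 to 93.1). The other 4 cystatins were low: Cst6 had 67 reads, Csta1 4, and Cst7 and Cst8 1 each. Cstb lay above Ctsb, Ctsz and Ctsl on the main scale. By transcript RPKM it lay above Ctsb and Ctsz, and its level of 304 was near the 295 of Ctsl. The intervals of Cst3 and Ctsl overlapped on the main scale.

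Of 11 cathepsins outside the 49 genes, most of them known from placenta or blood cells, 2 had at least 10 reads. Ctse had 444 reads and 2.67 RPKM, and Ctsw had 22 reads. The other 9 (Ctsg, Ctsq, Cts8, Cts6, Ctsr, Ctsj, Cts7, Cts3 and Ctsm) had 4 reads or fewer, and Ctsm had 0, which allows up to 3 reads, or 0.0571 CPM (reads per 1000000 reads). All 11 lay below the detected-gene median.

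**Figure D4:**
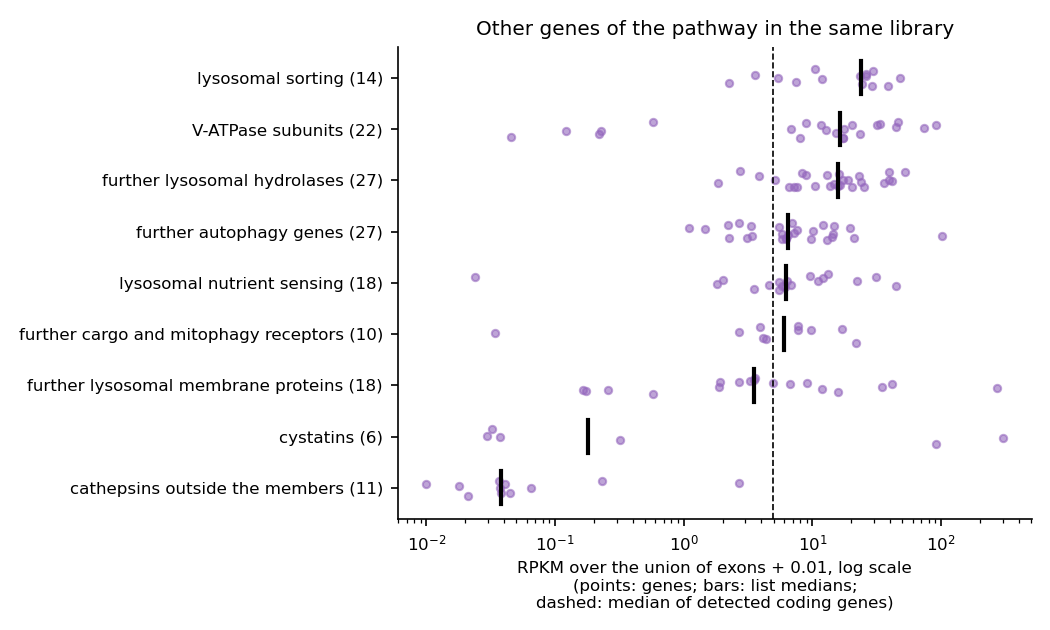
Level of each gene in the lists of other pathway genes, as RPKM over the union of exons plus 0.01 on a log axis, with list medians as bars and the detected-gene median dashed. Sorting genes, proton pump subunits and further hydrolases have medians of 23.7, 16.2 and 15.8 RPKM, and cathepsins outside the 49 genes lie near 0 apart from Ctse.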

How the data were processed

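The labels' protocols give a SOLiD library from TRIzol-extracted total RNA of 1 culture. The deposited table gives a symbol, RefSeq accessions and 1 signal value per row, per the file headers. All 20976 values above 0 were whole multiples of 1.18 within 0.006 reads, so the authors' deposited signal was taken as read counts divided by 1 size factor of 0.850, and whole reads were recovered. The submitters' processing notes name DESeq and mm10. Aligner, counter, strand setting and filters: not given in the sources used here. On 3 simulated libraries of 24214 rows the recovery returned 100% of rows.

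Rows of 1 gene were summed. For levels, genes with an NM accession counted as protein-coding (20559). The 17492 genes of the promoter comparison were those that RefSeq calls protein-coding, whether or not they had a row. CPM is reads per 1000000 reads counted over all rows, and 1 read is 0.0190 CPM. RPKM divides by the union of GENCODE M21 exons (found for 99.2% of protein-coding genes), and transcript RPKM by the longest transcript carrying the row's accessions (98.2%). GENCODE M21, the RefSeq tables and mm10 share the GRCm38 assembly. Coordinates are 1-based, from RefSeq. Of the 266 genes listed, all had a row, 8 of them under an older symbol. Intervals are exact Poisson, or, for ratios, exact binomial on reads, and leave out the error of the lengths. With 1 library no count test was run, and protein sequences were not used here. All 49 genes are named, with the 3 highest of each pathway list (1 hydrolase is not reported here), any member under 10 reads, and the highest cell type marker of each list with defining ones near 0. Genes leading a list by transcript RPKM only, and the other cell type markers printed, were named after their values were seen. The genes and lists were chosen with earlier results of these data known. Alternatives were other lengths, no length, other detection levels, another pseudocount than 0.05 RPKM, another total, and sets without some genes. Scripts ran in Python 3.11.15 with scipy 1.17.1, numpy 2.4.6, matplotlib 3.10.9 and pandas 2.3.3.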

Additional observations from a re-analysis of the deposited data

How the results depend on the processing

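No paired analysis was possible because there is a single library, and for the same reason none was left out in turn. All 49 genes stayed detected at 1 and 50 reads, and the count above the detected-gene median stayed between 35 and 45. The median of the 49 genes was 17.7 RPKM with the longest or the named transcript, 55.7 CPM without division by length and 16.2 RPKM with a total without the 100 most abundant genes. Its ratio to the detected-gene median stayed between 2.33 and 2.65. The lysosomal minus autophagy difference was 2.25 log2 units with the longest transcript, 1.93 without division by length and 1.35 without the 7 genes that share windows, a set chosen after seeing the data. The lysosomal share of the summed level was 81.1% with the longest transcript, 80.6% with the named transcript and 78.9% without Psap. Of 72 ratios under other lengths, 7 crossed 1. Ctsb over Ctsl did so with the named transcript (0.691). Ctsl over Ctsz did so with the named transcript (3.05) and without length (4.18). Map1lc3b over Map1lc3a did so with the longest transcript (1.12), the named transcript (1.82) and without length (4.15). Tfe3 over Tfeb did so with the longest transcript (0.9998). Depth limits mainly the scarce genes. Lengths limit the order of genes and the size of ratios. Lamp1 over Lamp2, for example, was 5.27 per exon union and 2.38 per named transcript. Shared sequence and overlapping exons are further limits.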
